A study of Mus musculus with 12 samples.

Results

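The TCRα chains described here are those whose variable segment was called TRAV4D-3 or TRAV4N-3, with an in-frame CDR3, among newly developed regulatory T lymphocytes (Treg) of the mouse thymus. Members were chosen by the V segment name and the reading frame that the deposited clonotype tables give, and both copies were counted as 1 segment. They were also taken up because earlier results for these libraries, including those of a TRAJ37 clonotype, were known, so that the values below are no independent evidence of that earlier pattern. A clonotype is a V segment, a CDR3 amino acid sequence and a J segment, with the copies of a V segment merged. In all, 3332 of the 19885 in-frame clonotypes (16.8%) were members, and they held 47056 of the 190549 in-frame unique molecular identifiers (UMIs, 24.7%). A UMI is a random tag added during cDNA synthesis, so that reads with the same tag count as 1 mRNA molecule. The members joined to 42 J segments. A further 659 rows with 1962 UMIs carried these V names with a stop codon or a shifted frame and were left out.

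A TCRα chain is assembled in CD4+CD8+ thymocytes when 1 TRAV segment is cut and joined to 1 TRAJ segment. Bases can be trimmed from either end and others added without a template before the ends are ligated, and this junction forms the centre of the CDR3, the loop that lies over the peptide in the MHC groove. The CDR1 and CDR2 loops are encoded in the V segment alone. Joining starts with V and J segments that lie close to each other and can move outward on the same allele, toward V segments farther upstream and J segments nearer the constant region. Treg precursors are selected by self-ligands, and IL-2 and IL-15 are cytokines that signal through a shared receptor β- and γ-chain and support the last steps of Treg development.

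The 12 libraries came from 12 individual B6 mice aged 3 weeks, 4 wt, 4 Il2 null (Il2°) and 4 Il15 null (Il15°). All 3 genotypes carried the Rag2-Gfp reporter, whose GFP marks cells that transcribed Rag2 recently, the Foxp3-Thy1a reporter, which puts Thy1.1 on Foxp3-expressing cells, the Kaa Tcrb transgene, which gives all cells the same TCRβ chain, and 1 Tcra null allele, which leaves 1 allele for rearrangement. From each mouse 100000 thymic CD4+CD8-Thy1.1+GFP+ cells were sorted. The libraries held 24811, 22890, 15427 and 16703 in-frame UMIs in wt replicates 1 to 4, 12741, 17626, 14557 and 7293 in Il2° and 17264, 13078, 10340 and 17819 in Il15°. The mutant mice lacked the cytokine in all tissues, and the fixed TCRβ chain limits the repertoire to chains that pair with it.

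Trav4d-3 lies on mouse chromosome 14 (GRCm38, plus strand) at chr14:52899969-52900470 and Trav4n-3 at chr14:53210906-53211407. Each has 2 exons, of which the first encodes the start of the leader peptide and the second the rest of the chain up to the CDR3. The spliced transcripts are identical over all 331 bases. The relatives compared differ from Trav4d-3 by 8 bases (Trav4-3) and 33 bases (Trav4d-4) in an alignment without gaps, and other Trav4 segments were not compared. The name TRAV4D-3 was given to 31664 UMIs and TRAV4N-3 to 15392. Of 2504 CDR3 nucleotide sequences found in at least 2 libraries, 673 (26.9%) carried both names, so the copies could not be told apart. Both segments contribute the same 13 bases to the CDR3, read as Cys-Ala-Ala-Glu plus 1 base, from exon 2 at chr14:52900458-52900470 and chr14:53211395-53211407. Of the members' UMIs 88.8% kept at least the first 8 of these bases, which Trav4-3 and Trav4d-4 share, so this does not tell the members from these relatives. Traj37, the J segment with the highest mean share of their joins over all libraries, contributes 29 bases at chr14:54181518-54181546, 1281 kb downstream of Trav4d-3 and 970.1 kb downstream of Trav4n-3. The sequences below show these ends, the leading clonotypes and the way a single junctional base separates related CDR3s. Capitals mark bases that match neither the germline V segment read from the 5′ end nor the germline J segment read from the 3′ end. An added base that matches by chance is in lower case, so capitals are a minimum.
Trav4d-3 and Trav4n-3, end: tgtgctgctgagg
Traj37, start: taacaggcaataccggaaaactcatcttt
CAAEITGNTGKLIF, TRAJ37: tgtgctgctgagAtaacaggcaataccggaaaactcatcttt
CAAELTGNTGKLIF, TRAJ37: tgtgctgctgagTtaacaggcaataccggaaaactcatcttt
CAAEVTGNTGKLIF, TRAJ37: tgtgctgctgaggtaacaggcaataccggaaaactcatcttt
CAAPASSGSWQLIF, TRAJ22: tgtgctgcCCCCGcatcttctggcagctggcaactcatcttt
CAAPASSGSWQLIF, TRAJ22, second sequence: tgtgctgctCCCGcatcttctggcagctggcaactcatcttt
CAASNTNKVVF, TRAJ34: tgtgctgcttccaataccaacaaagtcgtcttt
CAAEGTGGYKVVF, TRAJ12: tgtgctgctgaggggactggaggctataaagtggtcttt

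TRAV4D-3 and TRAV4N-3 took a smaller share of the repertoire in Il2° Treg than in wt or Il15° Treg. They made up 26.3%, 25.5%, 30.03% and 27.2% of the in-frame UMIs in wt replicates 1 to 4, with a mean of 27.3% ± 1.98 (SD, n = 4). The Il2° libraries stood at 21.4%, 17.3%, 21.1% and 19.1%, with a mean of 19.7% ± 1.94 (SD, n = 4). The Il15° libraries stood at 27.6%, 22.4%, 25.6% and 27.8%, with a mean of 25.8% ± 2.48 (SD, n = 4). All Il2° libraries lay below all wt and all Il15° libraries, and the wt and Il15° ranges overlapped. The 95% Wilson interval of a library's share, which covers counting error only, ran from 18.2% to 20.02% in the shallowest library (Il2° replicate 4) and from 25.7% to 26.8% in the deepest (wt replicate 1).

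**Figure D1:**
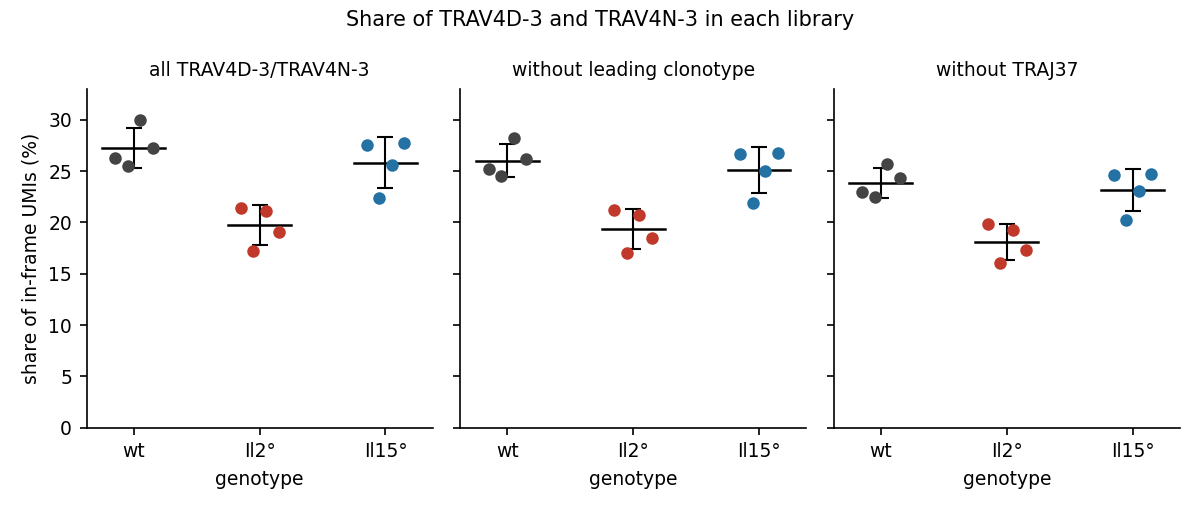
Share of TRAV4D-3 and TRAV4N-3 among in-frame UMIs (%, y axis) by genotype (x axis), for all members, without the leading clonotype and without all TRAJ37 joins. Points are libraries, 4 per genotype, and lines with bars are means ± SD. The Il2° points lie below the wt points in each panel.

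In edgeR's quasi-likelihood test over 70 V segments, the log2 fold change of Il2° against wt was -0.64 after TMM scaling (SE 0.11, adjusted p = 0.000607). TMM rescales the libraries to a set of segments that change little, so this value is larger than the ratio of the printed shares, and scaling by library totals without TMM gave -0.47 (adjusted p = 0.00130 in edgeR). This was the 1 V segment past the threshold of 0.05, or 1.43% of those tested, and the median over all segments was 0.00. In Il15° against wt the fold change was -0.08 (log2, SE 0.10, 95% interval -0.27 to 0.11, adjusted p = 0.739 in edgeR), and the 1 segment past the threshold (1.43% of 70) was TRAV13-4, named after its value was seen. In Il15° against Il2° Treg the share was higher (log2 fold change 0.59, SE 0.12, 95% interval 0.34 to 0.83, adjusted p = 0.00741 in edgeR), and 2.94% of 68 segments passed, the other being TRAV14-3, also named after its value was seen. The last call was lost when Il2° replicate 2 (adjusted p = 0.110), Il2° replicate 4 (0.0718), Il15° replicate 3 (0.0646) or Il15° replicate 4 (0.116) was left out, and with DESeq2 (0.109), at log2 fold changes from 0.47 to 0.59. It was also lost with each clonotype counted once (log2 fold change 0.30, adjusted p = 0.0588 in edgeR) and with TRAV4N-3 alone (0.53, 0.0614). TRAV4D-3 alone kept it (0.55, adjusted p = 0.0477 in edgeR). Scaling by library totals without TMM gave a log2 fold change of 0.39 (adjusted p = 0.0445 in edgeR). With each clonotype counted once in place of its UMIs, the Il2° difference from wt was -0.33 (log2, adjusted p = 0.0892 in edgeR), and with TRAV4N-3 alone it was -0.49 (adjusted p = 0.122), so neither passed. With TRAV4D-3 alone this difference was -0.71 and passed (adjusted p = 0.00165 in edgeR). The names divide the CDR3s unequally, with 100% of the UMIs of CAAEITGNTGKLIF with TRAJ37 and 15.4% of those of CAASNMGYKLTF with TRAJ9 named TRAV4D-3. Results for single names therefore concern different sets of CDR3s and do not compare the copies. The comparisons with wt share the wt libraries. Shares sum to 100% in each library, so a smaller share of 1 segment goes with larger shares of others, and fewer cells with these V segments and less Tcra mRNA per such cell cannot be told apart.

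The related V segments compared in sequence were TRAV4D-4, TRAV4N-4 and TRAV4-3, and none of them passed a test with edgeR. TRAV4D-4 and TRAV4N-4, which end in the same 13 bases, took 7.24% ± 0.51 of the UMIs in wt Treg, 6.31% ± 0.34 in Il2° Treg and 6.59% ± 0.38 in Il15° Treg (SD, n = 4 each). Their log2 fold change in Il2° against wt was -0.38 (SE 0.14, adjusted p = 0.210 in edgeR), and the difference between these segments and TRAV4D-3 with TRAV4N-3 was not tested. TRAV4-3 was rare, with 0.2603% ± 0.0509 of the UMIs in wt Treg, 0.229% ± 0.0790 in Il2° Treg and 0.0784% ± 0.0603 in Il15° Treg (SD, n = 4 each). Its lowest adjusted p was 0.137, in Il15° against wt (log2 fold change -1.65, SE 0.48, unadjusted p = 0.00438 in edgeR). Among V segments with a mean share of at least 0.5%, the log2 share of TRAV4D-3 and TRAV4N-3 over the 12 libraries followed that of TRAV6D-5 and TRAV6N-5 most closely (Pearson r = 0.66), then those of TRAV12D-2 and TRAV12N-2 (0.618) and of TRAV12D-3 and TRAV12N-3 (0.471). These correlations are descriptions over 12 libraries whose shares are bound to the same total.

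TRAJ37 and TRAJ31 had the highest means over the 12 libraries among the 42 J segments joined to TRAV4D-3 and TRAV4N-3, at 10.3% and 8.96% of the members' UMIs. In Il2° Treg the mean of TRAJ31 (9.17% ± 0.65) was above that of TRAJ37 (8.21% ± 1.08, SD, n = 4 each). TRAJ37 took 12.6%, 11.7%, 14.3% and 10.7% of the members' UMIs in wt replicates 1 to 4, 7.51%, 7.17%, 8.62% and 9.55% in Il2° and 10.8%, 9.66%, 9.85% and 10.9% in Il15° Treg. All Il2° libraries lay below all wt and all Il15° libraries. The other J segments with a mean of at least 5% over the 12 libraries were TRAJ31 (9.78% ± 0.49 in wt), TRAJ32 (6.86% ± 0.52), TRAJ22 (5.48% ± 1.17), TRAJ17 (5.33% ± 0.93) and TRAJ34 (5.26% ± 0.68), each with n = 4 and the SD. TRAJ17 went the other way within the members, with 5.33% ± 0.93 in wt Treg, 7.93% ± 1.06 in Il2° Treg and 5.50% ± 0.59 in Il15° Treg (SD, n = 4 each), without overlap between wt and Il2°. As a share of the whole library TRAJ17 joins stood at 1.44% ± 0.16 in wt and 1.56% ± 0.25 in Il2° Treg (log2 fold change 0.08, SE 0.20, adjusted p = 0.918 in edgeR).

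**Figure D2:**
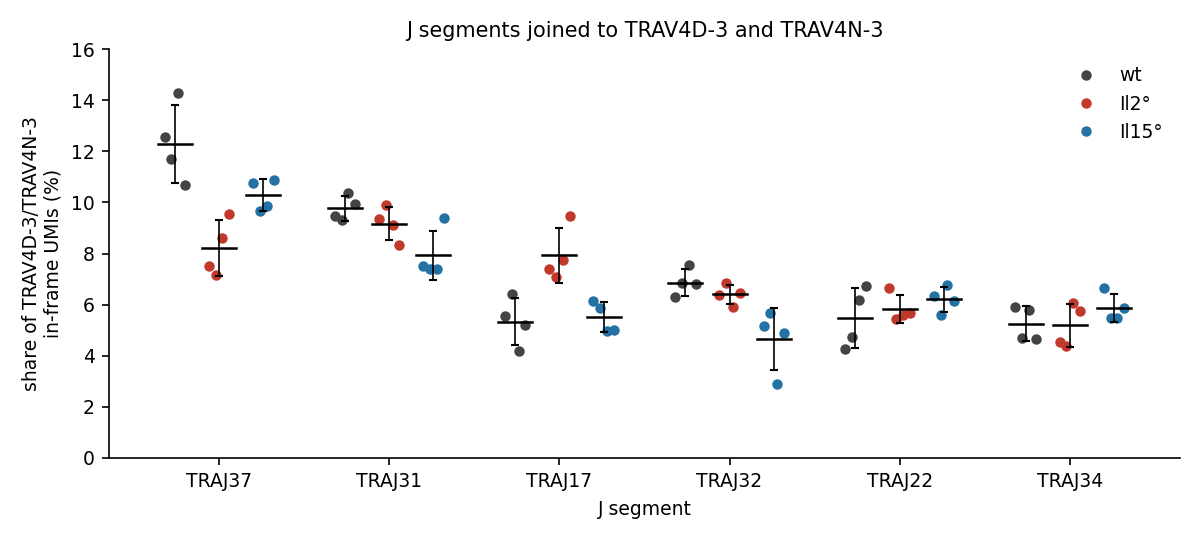
Share of the TRAV4D-3 and TRAV4N-3 UMIs (%, y axis) that were joined to each of the 6 J segments with a mean of at least 5% (x axis). Points are libraries, 4 per genotype, lines and bars are means ± SD. TRAJ37 was lower and TRAJ17 higher in Il2° than in wt Treg without overlap.

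Among the member pairs, the join with TRAJ37 passed the test in edgeR as lower in Il2° than in wt Treg. As a share of the library it took 3.30%, 2.98%, 4.28% and 2.90% in wt replicates 1 to 4, 1.61%, 1.24%, 1.82% and 1.82% in Il2° and 2.97%, 2.16%, 2.52% and 3.02% in Il15° Treg. The Il2° values lay below all others, and the wt and Il15° ranges overlapped. In edgeR over 499 V-J pairs, of which 38 were members, the log2 fold change of Il2° against wt was -1.09 (SE 0.20, adjusted p = 0.00919). Of all pairs tested 0.401% passed, this pair downward and TRAV6D-7 or TRAV6N-7 with TRAJ37, named after its value was seen, upward. With the replicate number as a block, the call of the member pair with TRAJ37 was lost (log2 fold change -1.10, adjusted p = 0.0678 in edgeR). Of the 38 member pairs tested 32 had a log2 fold change below 0 with a median of -0.48, beside 46.4% below 0 and a median of 0.05 over the other pairs. The member pairs are the parts of the V segment share given above, so this is no separate result. TRAJ31 (-0.60), TRAJ32 (-0.61), TRAJ34 (-0.52) and TRAJ22 (-0.41), as log2 fold changes of Il2° against wt, did not pass, with adjusted p in edgeR from 0.155 to 0.582. Of these, TRAJ31 took 1.81% ± 0.19 of the library in Il2° Treg against 2.67% ± 0.33 in wt Treg, and TRAJ32 1.26% ± 0.08 against 1.88% ± 0.27 (SD, n = 4 each). As shares of the members' own UMIs both overlapped between Il2° and wt. There TRAJ31 stood at 9.17% ± 0.65 against 9.78% ± 0.49, and TRAJ32 at 6.40% ± 0.38 against 6.86% ± 0.52 (SD, n = 4 each). DESeq2 called 7 of the 29 member pairs to which it gave an adjusted p, all downward and TRAJ37 among them, beside 15 of 170 pairs in all (8.82%). Outside TRAV4D-3 and TRAV4N-3, TRAJ37 took 3.74% ± 0.17 of the UMIs in wt Treg, 3.81% ± 0.39 in Il2° Treg and 3.16% ± 0.63 in Il15° Treg (SD, n = 4 each). Without all TRAJ37 joins the members still took 23.9% ± 1.46 of the library in wt Treg, 18.1% ± 1.77 in Il2° Treg and 23.2% ± 2.08 in Il15° Treg (SD, n = 4 each), with no overlap between Il2° and the other genotypes.

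No member pair passed in the other comparisons with edgeR. In Il15° against wt 0 of 38 member pairs passed, and 0% of the 504 pairs in all were called. At an unadjusted p under 0.05 there were 2 member pairs beside 29 of all pairs (5.75%), and DESeq2 called 0 member pairs beside 4 of all pairs (0.794%). The member with the lowest unadjusted p among the named J segments was TRAJ32, with 1.88% ± 0.27 of the library in wt and 1.196% ± 0.31 in Il15° Treg (SD, n = 4 each; log2 fold change -0.64, SE 0.22, adjusted p = 0.615). In Il15° against Il2° Treg 0 of 37 member pairs passed with edgeR, against 0.67% of the 448 pairs in all, which were TRAV1 with TRAJ21, TRAV6-5 with TRAJ22 and TRAV8D-2 or TRAV8N-2 with TRAJ5, named after their values were seen. At an unadjusted p under 0.05 there were 9 member pairs beside 57 of all pairs (12.7%). DESeq2 called 4 of the 22 member pairs to which it gave an adjusted p, TRAJ37 among them, beside 12 of 101 pairs in all (11.9%). The median log2 fold change of the 37 member pairs tested was 0.52 and that over all pairs -0.05. Again the member pairs are the parts of the V segment share, so this is no separate result. The TRAJ37 pair differed by 0.74 (log2, SE 0.25, adjusted p = 0.124 in edgeR).

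Along the Tcra locus, as shares of the members' own UMIs, the joins shifted toward J segments near the constant region in Il2° Treg. This grouping was made after the values were seen and therefore not tested. The members took a smaller share of the library in Il2° Treg, so a higher percentage here is not a higher share of the library. TRAJ19 and below, the segments nearest to Trac, held 27.2% ± 1.77 of the members' UMIs in wt Treg, 35.4% ± 2.71 in Il2° Treg and 30.5% ± 2.75 in Il15° Treg (SD, n = 4 each). TRAJ20 to TRAJ39 held 65.9% ± 2.05, 57.9% ± 2.43 and 62.9% ± 3.35, and TRAJ40 and above 6.96% ± 0.84, 6.71% ± 1.47 and 6.57% ± 1.10. For all other V segments TRAJ19 and below held 41.3% ± 3.99 in wt Treg, 42.3% ± 2.63 in Il2° Treg and 42.8% ± 1.15 in Il15° Treg (SD, n = 4 each).

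Within the TRAJ37 joins, a CDR3 of 14 residues that keeps the germline glutamate of the V segment and carries isoleucine next to it, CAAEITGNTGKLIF, had the highest mean share of all members over the 12 libraries. It did not have the highest mean in Il2° Treg, where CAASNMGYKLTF with TRAJ9 (0.450%), the most abundant TRAJ17 clonotype (0.446%) and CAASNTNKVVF with TRAJ34 (0.404%) stood above it (0.358%). It held 1572 UMIs in 12 of 12 libraries. Per library it took a share of 1.08%, 0.965%, 1.82% and 1.01% in wt replicates 1 to 4, 0.220%, 0.204%, 0.419% and 0.590% in Il2° and 0.915%, 0.489%, 0.629% and 1.01% in Il15° Treg. All Il2° values lay below all wt values, while wt and Il15° as well as Il15° and Il2° overlapped. Its log2 fold change in Il2° against wt was -1.72 (SE 0.35, adjusted p = 0.0498 in edgeR over 477 clonotypes, 142 of them members), which puts it just inside the threshold as the 1 clonotype called (0.21%). The call was lost in 7 of 8 fits that left out 1 library, with adjusted p up to 0.205. The highest came without wt replicate 3, the library with the highest share. The log2 fold change stayed between -1.97 and -1.50 over these 8 fits. The call was also lost with limma (log2 fold change -1.82, adjusted p = 0.0951), which called 0% of all 477 clonotypes. In edgeR it was lost with the replicate number as a block (-1.80, adjusted p = 0.138) and with V names as deposited (-1.78, 0.0588). DESeq2 kept the call (-1.68, adjusted p = 0.00334) and called 2 of the 477 clonotypes (0.419%). In Il15° against wt 0 of 172 member clonotypes passed with edgeR and 0% of 504 were called, while 15 members beside 30 of all clonotypes (5.95%) had an unadjusted p under 0.05. DESeq2 and limma each called 3 members there, beside 8 (1.59%) and 7 (1.39%) of all clonotypes, of which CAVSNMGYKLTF with TRAJ9 (lower in Il15°) and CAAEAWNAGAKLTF with TRAJ39 (higher in Il15°) were common to both, named after their values were seen. In Il15° against Il2° Treg 0 of 98 members passed with edgeR, DESeq2 or limma, and 15 beside 47 of all clonotypes (12.8%) had an unadjusted p under 0.05 in edgeR. Of all 366 clonotypes DESeq2 called 5 (1.37%), limma 2 and edgeR 0.546%, the last being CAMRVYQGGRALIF with TRAV16D or TRAV16N and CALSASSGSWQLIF with TRAV6-5, named after their values were seen.

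The leading CDR3 is 1 base away from related clonotypes, as the printed sequences show. Its most frequent nucleotide sequence, with 87.1% of its UMIs, has a lone base between the intact glutamate codon and the whole of Traj37. The same position holds T in the main sequence of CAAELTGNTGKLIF and the germline G of the V segment, with no added base needed, in that of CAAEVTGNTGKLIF. These relatives were chosen after their values were seen and were not tested as a set. The leucine form took 0.363%, 0.332%, 0.525% and 0.233% of the UMIs in wt replicates 1 to 4 and 0.0706%, 0.130%, 0.158% and 0.137% in Il2°, without overlap, and 0.319%, 0.291%, 0.222% and 0.269% in Il15° Treg. The valine form took 0.0950% ± 0.0575 in wt Treg, 0.0675% ± 0.0421 in Il2° Treg and 0.176% ± 0.0777 in Il15° Treg (SD, n = 4 each), with overlap. With the methionine and proline forms the set of 5 held 2342 of the 5062 TRAJ37 UMIs of the members, and made up 1.70% ± 0.48 of the library in wt Treg, 0.566% ± 0.205 in Il2° Treg and 1.22% ± 0.25 in Il15° Treg. The remaining TRAJ37 joins of the members took 1.67% ± 0.17, 1.06% ± 0.13 and 1.45% ± 0.23 (SD, n = 4 each). The leading CDR3 with TRAJ37 was seen with any other V name in 1 UMI.

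Of the other 9 most abundant members, none passed with edgeR in any comparison. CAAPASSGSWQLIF with TRAJ22 took 0.580% ± 0.254 in wt Treg, 0.290% ± 0.107 in Il2° Treg and 0.647% ± 0.189 in Il15° Treg (SD, n = 4 each; log2 fold change -0.94, SE 0.36, unadjusted p = 0.0168 and adjusted p = 0.278 in edgeR for Il2° against wt). Its log2 fold change in Il15° against Il2° was 1.15 (SE 0.38, unadjusted p = 0.00623 and adjusted p = 0.216 in edgeR). Its main sequences carry 4 or 5 bases that match no germline end, and 12 nucleotide sequences encoded it. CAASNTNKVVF with TRAJ34, whose main sequence needs no added base, took 0.460% ± 0.105 in wt Treg, 0.404% ± 0.162 in Il2° Treg and 0.463% ± 0.124 in Il15° Treg. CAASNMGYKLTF with TRAJ9 took 0.351% ± 0.083 in wt Treg, 0.450% ± 0.029 in Il2° Treg and 0.262% ± 0.067 in Il15° Treg, with Il2° above Il15° in all libraries (log2 fold change of Il15° against Il2° -0.84, SE 0.37, unadjusted p = 0.0310 and adjusted p = 0.379 in edgeR). The most abundant TRAJ17 clonotype took 0.333% ± 0.071, 0.446% ± 0.065 and 0.277% ± 0.166, and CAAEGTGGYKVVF with TRAJ12, again without added bases, 0.264% ± 0.024, 0.326% ± 0.061 and 0.301% ± 0.141 in the same order of genotypes. The remaining 4, with TRAJ39, TRAJ33 and TRAJ31, had means over the 12 libraries from 0.279% to 0.312%. Among them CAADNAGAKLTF (log2 fold change 1.01) and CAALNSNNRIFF (-0.86) had unadjusted p of 0.0253 and 0.0483 in Il15° against Il2°, with adjusted p of 0.379 and 0.380 in edgeR. The 10 were each found in 12 of 12 libraries and held 16.04% of the members' UMIs.

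**Figure D3:**
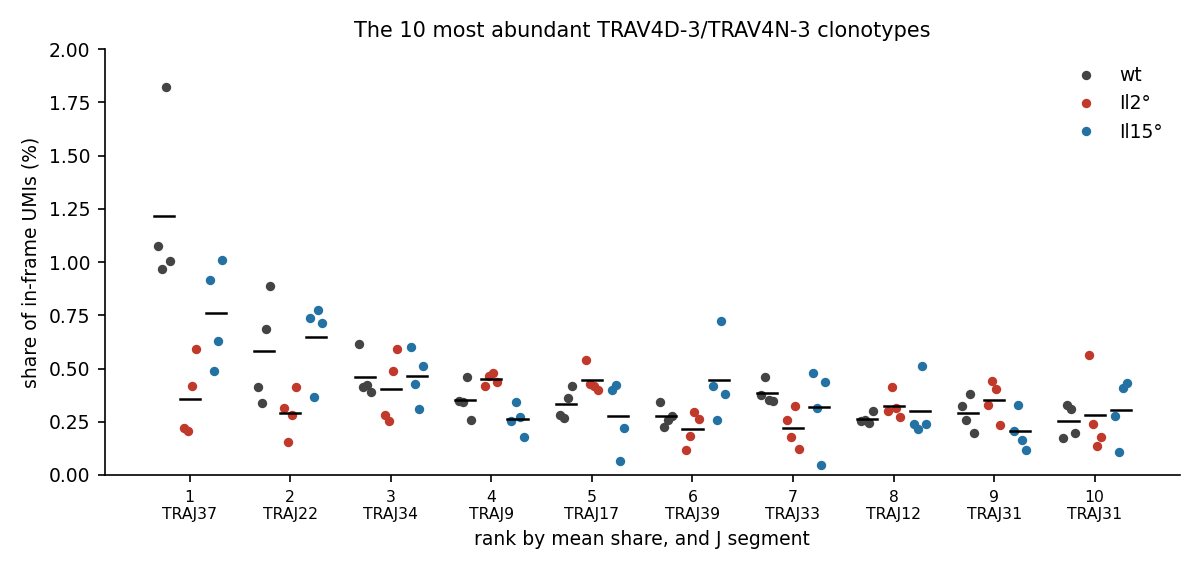
Share of in-frame UMIs (%, y axis) of the 10 most abundant TRAV4D-3 and TRAV4N-3 clonotypes, ranked by their mean over 12 libraries and labelled by J segment (x axis). Points are libraries, 4 per genotype, and lines are means. The clonotype of rank 1 was lower in all Il2° than in all wt libraries, and wt replicate 3 stands at 1.82%.

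The CDR3s of the members were shorter, had fewer bases outside the germline ends and were less positively charged than those of other V segments in the same libraries. Weighted by UMIs, their mean length was 12.6 residues against 13.2 for all other V segments (difference -0.69 ± 0.10, SD over 12 libraries), lower in 12 of 12 libraries. Bases matching neither germline end numbered 2.48 per CDR3 against 2.98 (difference -0.50 ± 0.12), also lower in 12 of 12. Net charge, counted as lysines plus arginines minus aspartates and glutamates, was 0.403 against 0.998 (difference -0.59 ± 0.05), again lower in 12 of 12. For all 3 differences the exact sign-flip permutation test over 12 libraries, 2-sided, gave p = 0.000488, the smallest it can give, and an adjusted p of 0.000879. Against TRAV4D-4 and TRAV4N-4, with the same germline end, the members were also shorter by 0.436 ± 0.128 residues in 12 of 12 libraries (adjusted p = 0.000879 in the same exact test). The differences from TRAV4D-4 and TRAV4N-4 in unmatched bases (-0.30 ± 0.23) and in charge (-0.10 ± 0.05) passed with UMI weights (adjusted p = 0.00439 and 0.000879 in the exact test) and not with each clonotype counted once (adjusted p = 0.891 and 0.0901). TRAV4-3 had 1 to 70 UMIs per library and passed no test. CDR3s that need no unmatched base held 17.4% ± 0.63 of the members' UMIs in wt Treg, 20.9% ± 1.85 in Il2° Treg and 18.1% ± 1.38 in Il15° Treg (SD, n = 4 each).

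Between genotypes the members' CDR3s were shorter and more positively charged in Il2° than in wt or Il15° libraries without overlap, although no difference passed after adjustment over 9 tests. The mean length was 12.58, 12.58, 12.70 and 12.63 residues in wt replicates 1 to 4, 12.504, 12.39, 12.395 and 12.49 in Il2° and 12.57, 12.69, 12.55 and 12.59 in Il15° Treg. All Il2° values lay below all others, and Il2° minus wt was -0.18 residues (exact Mann-Whitney test, 2-sided, p = 0.0286, the smallest that 4 against 4 libraries allow, adjusted p = 0.0643). These means include rare CDR3s of 37 residues, with up to 0.273% of the members' UMIs in an Il15° library. They also include some of 51 residues, with up to 0.0171% in a wt library. The net charge was 0.377 ± 0.023 in wt Treg, 0.476 ± 0.025 in Il2° Treg and 0.357 ± 0.020 in Il15° Treg (SD, n = 4 each), again without overlap between Il2° and either other genotype (exact p = 0.0286, adjusted p = 0.0643 for each). With each clonotype counted once the difference between Il2° and wt in charge fell from 0.0994 to 0.0396, that between Il15° and Il2° moved from -0.119 to -0.0473 (adjusted p = 0.171 for both in the exact test), and that between Il2° and wt in length moved from -0.177 to -0.0948 residues (adjusted p = 0.300). Unmatched bases were 2.50 ± 0.05, 2.37 ± 0.11 and 2.56 ± 0.11 (adjusted p = 0.171 for Il2° against wt in the exact test). By length, CDR3s of 14 residues held 25.5% ± 2.63 of the members' UMIs in wt Treg, 18.4% ± 1.83 in Il2° Treg and 25.1% ± 0.81 in Il15° Treg, while 11 residues held 16.3% ± 1.33, 19.1% ± 1.69 and 15.9% ± 1.70 (SD, n = 4 each). Among other V segments 14 residues held 32.7% ± 0.96, 32.8% ± 0.58 and 33.7% ± 2.12. TRAJ37 joins are mostly of 14 residues (80.7% of their UMIs). Without them the difference in length between Il2° and wt was -0.11 residues (adjusted p = 0.0857 in the exact test), a setting chosen after seeing the data.

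**Figure D4:**
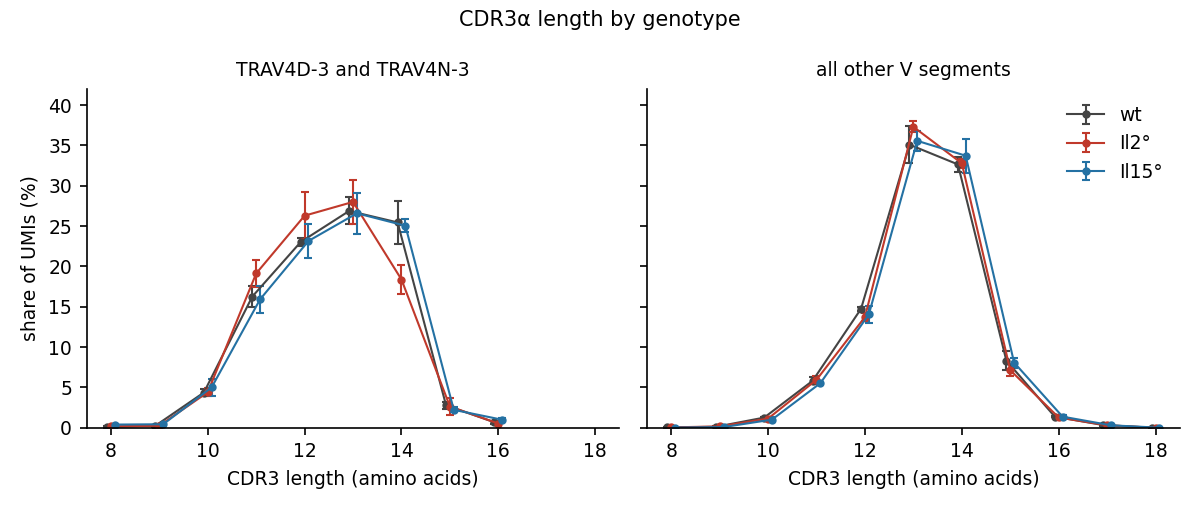
CDR3 length (amino acids, x axis) against the share of UMIs (%, y axis) for TRAV4D-3 and TRAV4N-3 and for all other V segments, by genotype. Points are means of 4 libraries, set slightly apart sideways by genotype, and bars the SD. Lengths from 8 to 18 are shown. At 14 residues the members stood at 18.4% in Il2° and 25.5% in wt Treg.

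The fourth CDR3 residue, glutamate when the V segment is not trimmed into its last whole codon, was less frequent in Il2° libraries. This measure was chosen after the values were seen and was not tested. CDR3s that kept the first 12 bases of the germline end held 24.9%, 24.5%, 26.6% and 25.6% of the members' UMIs in wt replicates 1 to 4, 16.2%, 17.0%, 17.0% and 17.9% in Il2° and 23.9%, 26.1%, 22.4% and 23.7% in Il15° Treg. The Il2° libraries lay below all others, and wt and Il15° overlapped. Without TRAJ37 joins the means were 20.8% ± 0.73, 15.0% ± 0.58 and 20.5% ± 1.22 (SD, n = 4 each), with the same separation. TRAV4D-4 and TRAV4N-4 kept the same 12 bases more often, in 43.4% ± 1.76 of their UMIs in wt Treg, 34.3% ± 4.24 in Il2° Treg and 37.9% ± 5.23 in Il15° Treg, and their Il2° and Il15° ranges overlapped. Counted as a residue from any codon, glutamate at position 4 held 28.7% ± 0.77 of the members' UMIs in wt Treg, 19.7% ± 0.71 in Il2° Treg and 27.2% ± 1.34 in Il15° Treg. Glycine held 9.80% ± 1.08, 12.8% ± 1.12 and 11.2% ± 1.31, and serine 9.35% ± 0.83, 12.7% ± 1.48 and 8.53% ± 1.69 (SD, n = 4 each). For both, Il2° lay above wt without overlap. Aspartate differed little, at 10.9% ± 0.62, 10.8% ± 0.72 and 11.9% ± 2.03.

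**Figure D5:**
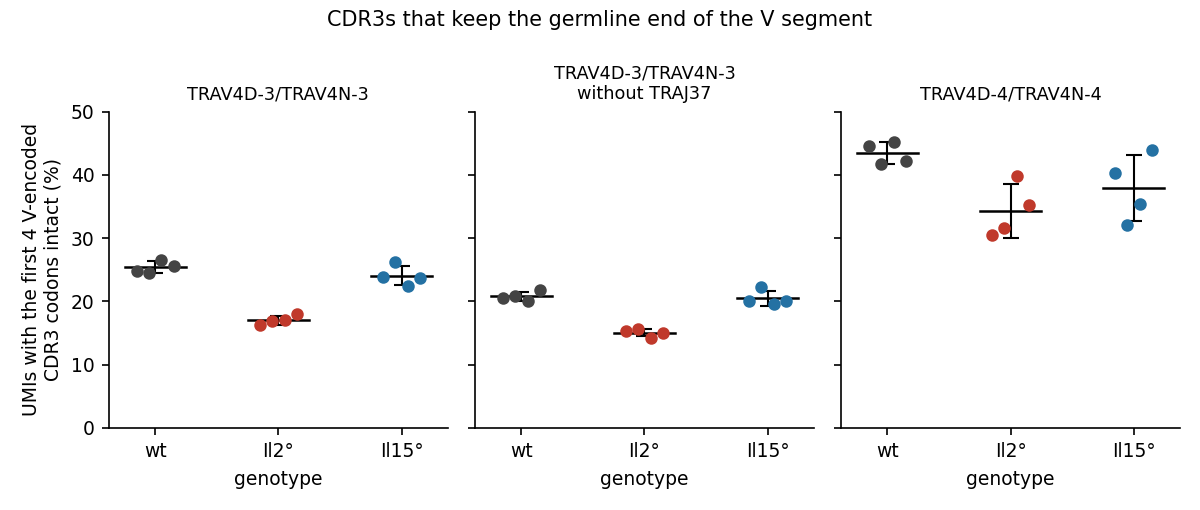
Share of UMIs (%, y axis) whose CDR3 keeps the first 4 germline codons of the V segment, by genotype (x axis), for TRAV4D-3 and TRAV4N-3, for the same without TRAJ37 joins, and for TRAV4D-4 and TRAV4N-4. Points are libraries, 4 per genotype, lines and bars are means ± SD. Il2° lay below wt in all 3 panels.

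No difference in clone size passed after adjustment over 9 tests. Comparisons without overlap had p = 0.0286, the smallest the exact Mann-Whitney test allows for 4 against 4 libraries, and adjustment turned it into 0.0514. A member clonotype held 6.52 ± 0.75 UMIs in wt Treg, 3.91 ± 1.19 in Il2° Treg and 6.46 ± 0.72 in Il15° Treg (SD, n = 4 each; Il2° against wt, exact Mann-Whitney test, 2-sided, adjusted p = 0.0514). The members' UMIs per library ranged from 4547 to 6514 in wt and from 1393 to 3076 in Il2°. With all libraries downsampled to 1393 of the members' UMIs the means were 2.69 ± 0.26, 2.75 ± 0.43 and 3.41 ± 0.82 (mean of 20 draws, SD over 4 libraries), and Il2° minus wt was 0.0558 (adjusted p = 1 in the exact test). At that depth the libraries held 521 ± 48 member clonotypes in wt Treg, 515 ± 71 in Il2° Treg and 427 ± 101 in Il15° Treg (SD, n = 4 each). Clonotypes with 1 UMI made up 17.4% ± 7.41 of the member clonotypes in wt Treg, 39.8% ± 14.04 in Il2° Treg and 24.4% ± 12.2 in Il15° Treg (SD, n = 4 each; Il2° against wt, exact p = 0.0286, adjusted p = 0.0514), and 51.0% ± 5.98, 50.8% ± 11.3 and 38.5% ± 14.2 after downsampling. The downsampled Il15° libraries stood at 48.9%, 23.5%, 29.3% and 52.1% in replicates 1 to 4, and Il2° replicate 1 at 34.4%. The largest member clonotype held 4.41% ± 1.12 of the members' UMIs in wt Treg, 2.68% ± 0.32 in Il2° Treg and 3.04% ± 0.62 in Il15° Treg, with both mutants below wt in all libraries (exact p = 0.0286, adjusted p = 0.0514 for each). Without wt replicate 3 the difference from wt moved from -1.37 to -0.82 points in Il15° libraries and from -1.73 to -1.18 points in Il2° libraries. Downsampling left these means at 4.41%, 2.83% and 3.05%. In every wt library the largest member clonotype was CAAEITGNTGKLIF with TRAJ37, so this measure is not separate from that clonotype's own share.

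A small set of members was shared by all mice. Of the 3332 clonotypes 1624 (48.7%) were seen in 1 library, and 55 (1.65%) in all 12, beside 53.1% and 0.846% for the other V segments. The 55 held 36.9% of the members' UMIs, with 37.4% ± 1.39 in wt, 37.5% ± 3.42 in Il2° and 36.5% ± 0.95 in Il15° libraries (SD, n = 4 each). The shared clonotypes had a median of 8 nucleotide sequences (up to 18) and 1.64 unmatched bases per CDR3, whereas those of 1 library had a median of 1 sequence and 4.81 unmatched bases. Clonotypes with more UMIs have more chances to be seen in several libraries and as several sequences, so this is a description. Present in all 4 libraries of a genotype were 198 members in wt Treg, 111 in Il2° Treg and 114 in Il15° Treg. The wt and Il2° sets shared 88 members, 44.4% of the wt set and 79.3% of the Il2° set, beside 46.6% and 68.1% over all clonotypes. The wt and Il15° sets shared 79 members, 39.9% of the wt set and 69.3% of the Il15° set, beside 40.7% and 62.0% over all clonotypes. The differences from all clonotypes were not tested. Depth differed between these groups and its part in the counts was not tested.

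The invariant TCRα chains of other thymic T cells were near 0 in all libraries. The chain of iNKT cells (TRAV11 with TRAJ18) had 5 to 17 UMIs per wt library, 1 to 9 in Il2° and 1 to 15 in Il15°, at most 0.115% of the in-frame UMIs. The chain of MAIT cells (TRAV1 with TRAJ33) had 5 to 28 UMIs in wt, 6 to 19 in Il2° and 0 to 3 in Il15°, at most 0.247%. The libraries with 0 UMIs, Il15° replicates 1 and 2, allow shares up to 0.0174% and 0.0229% (3 UMIs of the total, counting error only). Neither chain carries a member V segment.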

How the data were processed

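The members, lists and groupings were chosen with earlier results of these data known. Per the labels, cells came from individual mice. The authors collapsed reads that shared a UMI with pRESTO, keeping UMIs of 2 or more reads, assigned V and J segments with MiXCR and deposited VDJtools tables, with the UMI count of each CDR3 nucleotide sequence, its fraction of the library and the positions of V and J ends in the CDR3. The submitters' processing notes name mm10 as the build, and versions of the tools are not given in the sources used here. Counts were used as deposited. The deposited fractions were not used further, and the deposited positions only as an alternative, since 13.1% of the members' rows place the V end past the germline V segment.

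From the counts, V segments, V-J pairs and clonotypes that reached 5 UMIs in 4 or more of the 8 libraries compared were tested with edgeR's quasi-likelihood test (edgeR 4.0.16, TMM normalization, R 4.3.3) on all features, adjusted by Benjamini-Hochberg at a threshold of 0.05. DESeq2 1.42.0 and limma 3.58.1 on log2(percent + 0.01) were alternatives. Library means were compared with exact Mann-Whitney tests and within libraries with exact sign-flip tests (Python 3.11.15, scipy 1.17.1). Scripts were tested on simulated data. Germline ends came from GENCODE M21 transcripts (GRCm38), found for 95 of 104 in-frame V names and covering 96.5% of in-frame UMIs, and all of the members' UMIs. Named were the 10 members with the highest mean share, those past the threshold, J segments with at least 5% of the members' UMIs and, of V segments with a mean share of at least 0.5%, the 3 with the highest correlation. UMI totals ranged from 7625 to 25980 per library. Other alternatives were no TMM, other filters, 1 fit of all 12 libraries, single copies of the V segment, all rows, rows with 1 UMI left out, the replicate number as a block, downsampling and each library left out in turn.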

Additional observations from a re-analysis of the deposited data

Results flagged for a closer look

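In groups of 4 libraries, 7 of 69 groups examined held a library whose gap to the nearest other library exceeded Dixon's 95% critical share of the group's range, and chance flags about 1 in 20 groups. Wt replicate 3 stood apart in 3 measures: the leading TRAJ37 clonotype, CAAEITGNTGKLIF, took 1.82% of its in-frame UMIs against 0.965% to 1.08% in the other wt libraries, its member clonotypes held 7.63 UMIs on average against 6.05 to 6.22, and its largest member clonotype held 6.07% of the members' UMIs against 3.69% to 4.10%. This largest member clonotype was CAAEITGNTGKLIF itself, so the first and last of these measures are not separate flags. In wt replicate 1, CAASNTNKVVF with TRAJ34 took 0.617% against 0.389% to 0.421%. In Il15° Treg, TRAJ31 took 9.38% of the members' UMIs in replicate 4 against 7.40% to 7.52%, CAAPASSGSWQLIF with TRAJ22 took 0.367% of in-frame UMIs in replicate 2 against 0.713% to 0.774%, and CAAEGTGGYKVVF with TRAJ12 took 0.513% in replicate 3 against 0.214% to 0.241%.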

How the results depend on the processing

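Over all results, the alternatives other than leaving out a library left 206 values in place, while 14 turned direction, 11 lost the threshold, 1 newly passed it and 11 moved by more than the spread or, for counts, by over 1.5 times. With 1 library left out, 238 stayed in place, 4 turned direction, 11 lost the threshold, 1 newly passed it and 10 moved. The exact Mann-Whitney tests among these could not cross the threshold, since none had passed and 3 against 4 libraries allow no p below 0.0571. They counted as in place unless the direction turned, so the 238 are no measure of stability for them. For the share of TRAV4D-3 and TRAV4N-3 (log2 fold changes, adjusted p in edgeR unless named), TRAV4N-3 alone gave -0.49 (0.122) in Il2° against wt, 0.0889 in Il15° against wt, where the direction turned, and 0.53 (0.0614) in Il15° against Il2°. Each clonotype counted once gave -0.33 (0.0892) in Il2° against wt and 0.30 (0.0588) in Il15° against Il2°, where DESeq2 gave 0.59 (0.109) and leaving out a library 0.47 to 0.68. The number of member V-J pairs called in Il2° against wt was 7 with DESeq2 (15 of all pairs), 6 without rows of 1 UMI (8 of all pairs) and 1 to 2 with a library left out (1 to 7 of all pairs). In Il15° against Il2° it was 4 with DESeq2 (12 of all pairs) and 0 to 3 with a library left out (0 to 19 of all pairs, the highest without Il15° replicate 2). The number of member clonotypes called in Il2° against wt was 0 with limma, 0 with V names as deposited and 0 to 1 with a library left out (as over all clonotypes), and in Il15° against wt it was 3 with DESeq2, 3 with limma and 1 with all 12 libraries in 1 fit (8, 7 and 3 of all clonotypes).

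Replicate numbers did not pair the libraries (correlations of same-numbered libraries from -0.0933 to 0.178). With the number as a replicate block, 0 member pairs and 0 member clonotypes, as over all pairs and clonotypes, were called in Il2° against wt (TRAJ37 -1.10, adjusted p = 0.0678; leading clonotype -1.80, 0.138, both in edgeR) and 1 clonotype in Il15° against Il2° (5 of all clonotypes), while the share of the V segments kept its calls (-0.65 and 0.58).

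The CDR3 length difference between Il15° and wt was 0.0483 residues with each clonotype counted once, 0.0184 without TRAJ37 and -0.0511 to 0.00332 with a library left out. Inserted bases turned direction with the deposited positions, chosen after seeing the data, at 0.0617 (Il2° minus wt), -0.0313 (Il15° minus wt) and -0.0930 (Il15° minus Il2°), and with each clonotype counted once at -0.00651 (Il15° minus wt) and 0.246 (against TRAV4-3). Against TRAV4D-4 and TRAV4N-4, each clonotype counted once gave -0.0109 inserted bases and a charge difference of -0.0370. Downsampled, UMIs per clonotype differed by 0.0558 (Il2° minus wt) and 0.717 (Il15° minus wt), and the percentage of clonotypes with 1 UMI by -0.112 and -12.5 points, against 22.5 and 6.996 points before. Without downsampling, this percentage in Il15° minus wt ran from 3.52 to 12.8 points with a library left out. UMIs per clonotype in Il15° minus wt were 0.624 without rows of 1 UMI and -0.340 to 0.314 with a library left out, and the largest clonotype in Il15° minus Il2° was -0.114 points without rows of 1 UMI, a setting that gives no percentage of clonotypes with 1 UMI. The cause of these changes was not tested. Depth, from 1393 to 6514 member UMIs per library, limits the values of single clonotypes.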
